A study of Mus musculus with 15 samples.

Results

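The regions described here are the longest stretches of autosomal chromatin that carried H3K27me3 in EL4, a murine T lymphoblast (lymphoma) cell line of strain C57BL/6N. H3K27me3 is histone H3 trimethylated at lysine 27. Polycomb repressive complex 2 places this mark and also binds it, so that it can spread along neighbouring nucleosomes, and genes under it are mostly silent. It is best known from compact domains over developmental regulators such as the Hox genes, and wide, shallow domains over silent gene clusters and long silent genes are known as well. H3K36me2, the dimethyl mark of lysine 36, hinders the same enzyme on the same histone tail and usually fills the chromatin between Polycomb domains.

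The 12 peak lists used came from EL4 cells of this strain, for which the labels give no treatment or genotype contrast, with 2 replicates for each of H3K27me3, H3K36me2, H3K27ac, H3K9ac and H3K4me3 (ChIP-seq, chromatin immunoprecipitation and sequencing) and for ATAC-seq, which maps open chromatin. The antibodies against H3K27me3, H3K36me2 and H3K4me3 were from Millipore and those against H3K27ac and H3K9ac from Abcam. Each list holds interval positions only, so the read depth behind an interval is unknown, and no gene expression or read count enters any value. The labels do not say that replicates came from separate cultures, and the paper calls them technical where it describes the merging of peaks, so that replicate spread here may be technical. The T lineage identity of the cells was checked with H3K4me3 in both replicates within 3 kb of marker genes: 7 of 7 T lineage markers (Cd3e, Cd3d, Cd3g, Lck, Tcf7, Ptprc and Thy1) carried it, against 2 of 4 B lineage markers (Pax5 and Cd79a) and 2 of 4 myeloid markers (Lyz2 and Itgam).

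Both H3K27me3 lists were merged where intervals overlapped or adjoined, which gave 43304 autosomal peaks. The long domains are the 1371 peaks of at least 30 kb with an interval of both replicates. They were chosen by their measured width, so the width and the presence of both replicates are a description and carry no test. They made up 3.17% of the autosomal peaks and held 63.1 Mb, which is 17.1% of the merged H3K27me3 base pairs and 2.64% of the autosomal span. The median width was 40.2 kb (quartiles 34.0 and 51.2 kb) and the widest domain reached 241 kb. There were 363 domains of at least 50 kb and 27 of at least 100 kb. The widest peak seen in 1 replicate alone was 26.0 kb, so no peak of 30 kb or more was left out for want of the other replicate. The threshold cuts a continuous range: 20 domains had the smallest width of 30.199 kb and 22 peaks lay just under it at 29.999 kb. The bp covered in both replicates had a median of 76.5% in the former and 74.0% in the latter. The number of domains depends on the use of both lists, since replicate 1 alone (without replicate 2) holds 269 autosomal intervals of at least 30 kb and replicate 2 alone (without replicate 1) holds 535.

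The letters of 7 promoters inside domains are given as examples. They are low-CG promoters of tissue-specific genes (Krt5, Krt71, Olfr1413, Chil3), CG-rich promoters (Tmem117, Prok2), and the exception Mphosph6, which also carried H3K4me3. They do not give the share of each kind: 16.3% of the 662 windows inside domains had a CG count of 10 or more, and 0.755% carried H3K4me3. The windows are the 250 bases before the RefSeq start site on GRCm38.p6, printed 5′ to 3′ on the gene's strand. Capitals mark CG dinucleotides, the site of DNA methylation in mammals, and the TATA box letters TATAAA, and these motifs cannot overlap. The genes were chosen after their values were seen. Krt5 (keratin of basal epidermal cells) spans chr15:101712906-101713155 on the minus strand, Krt71 (inner root sheath keratin) chr15:101743098-101743347 on the minus strand, and Olfr1413 (olfactory receptor) chr1:92572875-92573124 on the plus strand. Chil3 (chitinase-like protein of myeloid cells) spans chr3:106167565-106167814 on the minus strand, and Tmem117 (a transmembrane protein) chr15:94628935-94629184 on the plus strand. Prok2 (prokineticin 2, a secreted signalling peptide) spans chr6:99726393-99726642 on the minus strand, and Mphosph6 (an RNA exosome cofactor) chr8:117801975-117802224 on the minus strand.
Krt5: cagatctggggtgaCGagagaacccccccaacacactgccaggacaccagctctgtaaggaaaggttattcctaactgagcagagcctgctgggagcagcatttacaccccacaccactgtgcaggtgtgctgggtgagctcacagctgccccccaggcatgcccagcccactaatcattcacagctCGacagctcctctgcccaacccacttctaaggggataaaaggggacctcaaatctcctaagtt
Krt71: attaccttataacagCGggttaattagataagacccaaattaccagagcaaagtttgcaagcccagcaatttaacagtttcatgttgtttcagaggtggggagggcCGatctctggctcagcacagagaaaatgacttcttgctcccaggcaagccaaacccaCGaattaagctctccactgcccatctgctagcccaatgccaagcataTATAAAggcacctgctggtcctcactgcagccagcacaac
Olfr1413: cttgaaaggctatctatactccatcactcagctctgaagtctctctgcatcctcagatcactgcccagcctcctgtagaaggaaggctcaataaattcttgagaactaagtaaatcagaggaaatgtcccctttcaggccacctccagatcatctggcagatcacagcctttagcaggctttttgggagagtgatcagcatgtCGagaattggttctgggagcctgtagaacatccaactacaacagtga
Chil3: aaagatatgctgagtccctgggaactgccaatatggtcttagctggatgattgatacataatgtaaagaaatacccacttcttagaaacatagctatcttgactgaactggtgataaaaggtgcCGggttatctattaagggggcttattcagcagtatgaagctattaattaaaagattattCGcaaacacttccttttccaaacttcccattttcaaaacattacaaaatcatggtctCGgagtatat
Tmem117: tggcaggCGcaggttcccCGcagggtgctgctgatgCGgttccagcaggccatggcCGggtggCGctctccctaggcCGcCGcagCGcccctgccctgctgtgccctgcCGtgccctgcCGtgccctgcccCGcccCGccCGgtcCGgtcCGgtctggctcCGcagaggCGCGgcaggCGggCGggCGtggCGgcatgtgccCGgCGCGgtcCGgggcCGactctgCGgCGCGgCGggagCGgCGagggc
Prok2: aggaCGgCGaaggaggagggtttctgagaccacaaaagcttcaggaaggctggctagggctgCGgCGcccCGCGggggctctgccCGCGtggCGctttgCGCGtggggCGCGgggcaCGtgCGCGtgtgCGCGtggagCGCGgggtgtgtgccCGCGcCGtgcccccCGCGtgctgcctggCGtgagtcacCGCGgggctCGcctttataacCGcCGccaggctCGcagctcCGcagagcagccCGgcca
Mphosph6: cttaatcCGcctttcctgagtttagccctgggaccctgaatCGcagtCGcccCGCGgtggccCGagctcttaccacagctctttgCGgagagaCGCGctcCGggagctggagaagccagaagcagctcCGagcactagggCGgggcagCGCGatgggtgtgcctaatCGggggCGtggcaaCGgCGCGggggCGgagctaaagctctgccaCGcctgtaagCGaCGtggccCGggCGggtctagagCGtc
The CG count of these windows was 2 for Krt5, 3 for Krt71, 1 for Olfr1413 and 3 for Chil3, against 33 for Tmem117, 34 for Prok2 and 26 for Mphosph6. All 7 start sites lay in H3K27me3 intervals of both replicates. The start site of Mphosph6 was 0.374 kb inside its domain, whereas those of Krt5 and Chil3 were 37.9 and 30.0 kb from the nearest edge.

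Each replicate covered most of the domain bp, and replicate 2 covered more. Replicate 1 covered 85.8% and replicate 2 covered 92.9% of the 63.1 Mb, and 49.7 Mb (78.6%) lay in intervals of both. Shorter two-replicate peaks (21890 peaks under 30 kb) had 59.9% of their bp in both. Per domain, the share in both replicates had a median of 79.5% (quartiles 68.9 and 87.6%) and ranged from 10.4% to 100%. It was at least 75% in 864 domains and under 25% in 8. The share rose with width, from 73.6% of the bp in the 678 domains of 30 to 40 kb to 89.1% in the 27 domains of at least 100 kb. Replicate 2 covered more than replicate 1 in 988 domains, less in 368 and the same in 15.

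**Figure D1:**
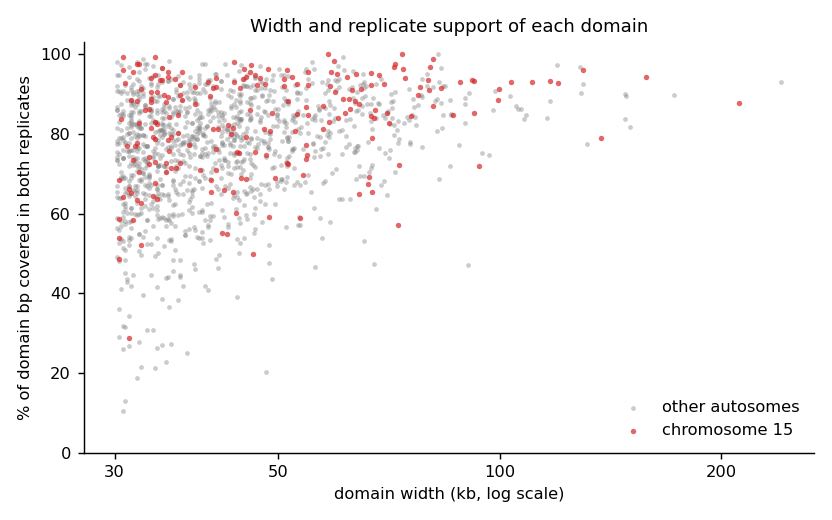
Each point is 1 of the 1371 domains, with its width in kb (log scale) on the x axis and the percent of its base pairs covered in both H3K27me3 replicates on the y axis; red points lie on chromosome 15 and grey points on the other autosomes. Wide domains sit high (89.1% of the bp of domains of at least 100 kb), and the domains under 25% are narrower than 50 kb.

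The 8 domains under 25% were of more than 1 kind. The domain at chr8:120945401-120976199 (30.8 kb) was covered over 99.4% of its length in replicate 2 and over 11.0% in replicate 1. The domain at chr9:43291401-43326599, which touches Trim29, was covered over 100% in replicate 2 and 22.7% in replicate 1. By contrast, the domain in Grik4 at chr9:42595401-42627599 was covered over 63.4% in replicate 1 and 55.3% in replicate 2, with 18.6% in both, and that in Fstl4 at chr11:52891201-52925199 over 41.8% and 79.4%. In the former examples 1 replicate spans nearly the whole width, and in the latter the replicates cover partly different stretches.

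In most domains no interval of either list reached 30 kb. In 751 of 1371 domains (54.8%) neither replicate had a single interval of 30 kb or more, and the domain reached 30 kb only as the union of shorter intervals. A single interval of at least 30 kb was present in 256 domains in replicate 1, in 514 in replicate 2 and in 150 in both. A run of at least 30 kb without interruption in both replicates was found in 111 domains (8.10%), with a median longest run of 14.2 kb over all domains.

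Breaks are stretches inside a domain that 1 replicate leaves uncovered between 2 of its intervals and the other replicate covers, as the merging requires. Replicate 1 had 3318 breaks and replicate 2 had 1991. The median break was 1001 bp in replicate 1 and 801 bp in replicate 2, and 801 bp was also the smallest in both. In replicate 1, 44.0% of the breaks had this smallest width, and in replicate 2, 52.2% did. Breaks of up to 2000 bp made up 79.4% in replicate 1 and 85.3% in replicate 2. Only 57 domains had no break in either replicate.

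The most broken domain lay within Dtna, the gene of the cytoskeletal protein dystrobrevin alpha, at chr18:23454001-23585399, with 9 breaks in each replicate. It was followed by chr18:33527201-33635199, which touches no gene and had 10 breaks in replicate 1 and 6 in replicate 2. The domain at chr6:50939001-51086799 had 9 and 6, the domain that touches Dmxl2 at chr9:54435001-54529599 had 10 and 4, and 2 of the longest domains had 13 in all, one that touches the non-coding gene Gm41042 on chromosome 13 and another in Plxna4 on chromosome 6. The widest break was a stretch of 30401 bp in replicate 1, at chr18:61792400-61822800, in a domain that touches Afap1l1 and Ablim3. The next widest, also in replicate 1, lay at chr3:121081200-121100200 and at chr11:52902000-52920800, the latter in Fstl4. In replicate 2 the widest break was 17601 bp long and lay within Pard3 at chr8:127298600-127316200.

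Breaks held few peaks of other marks, as did the covered parts of the domains. Of the 3318 breaks of replicate 1, 5 touched an H3K36me2 peak, 1 an H3K27ac peak, 1 an H3K9ac peak, 3 an H3K4me3 peak and 7 an ATAC-seq peak. Of the 1991 breaks of replicate 2, 2 touched an H3K36me2 peak, 1 touched an ATAC-seq peak and 0 touched H3K27ac, H3K9ac or H3K4me3. In replicate 1, H3K36me2 covered 0.0855% of the break bp and 0.121% of the covered bp, H3K4me3 0.0274% and 0.0260%, and ATAC-seq 0.0381% and 0.0173%, the last from 7 breaks. Start sites were about as dense in breaks of replicate 1 (10.9 per Mb) as in its intervals within domains (10.8 per Mb). In replicate 2 the values were 7.52 and 11.0 per Mb, from 19 start sites in breaks.

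The outer edges of the replicates lay close together. Over 2742 edges the outermost positions of the replicates differed by a median of 800 bp, 514 (18.7%) were identical, 1480 (54.0%) were within 1 kb and 65 lay more than 10 kb apart. Replicate 2 reached farther at 1330 edges and replicate 1 at 898.

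Apart from the HoxC region, the 10 longest domains lay over stretches without a protein-coding gene or reached into a single long gene. The longest, chr19:15439801-15680999 (241 kb), held 5 genes and 0 protein-coding ones. Replicate 1 covered 94.8% of it in 9 intervals and replicate 2 98.3% in 5. The third, chr13:101051201-101223599 (172 kb), touched only Gm41042 and was covered over 92.7% and 97.0%. Next came a 158-kb domain at chr15:6275001-6432999 that reached into Dab2, an endocytic adaptor gene, with 97.3% in replicate 1 and 97.1% in replicate 2. A domain of 150 kb lay within Plxna4 (a semaphorin coreceptor of growing axons) on chromosome 6, and one of 148 kb reached into Arhgap32 (a GTPase-activating protein) on chromosome 9. A further domain of 148 kb reached into Pard3, a cell polarity gene, on chromosome 8. The others were the domain at chr6:50939001-51086799 without a protein-coding gene, a domain of 137 kb that reached into Pdzd2 on chromosome 15, and the domain of 131 kb within Dtna.

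The second longest domain, chr15:102732801-102943999 (211 kb), was the only one over a Hox cluster. It held Hoxc13 and Hoxc12, homeodomain genes of the posterior body axis, and the non-coding genes Gm36560 and Cistr. Replicate 1 covered 96.5% of it in 2 intervals and replicate 2 91.4% in 2 intervals, and the run covered in both, 161 kb, was the longest of all domains. The domain ended 5.39 kb beyond Hoxc12. H3K4me3 began 0.938 kb farther on in replicate 1 and 1.005 kb farther on in replicate 2, in the neighbouring non-coding gene Hotair, and H3K27ac began 1.19 and 1.17 kb beyond the edge. A further H3K27me3 peak covered Hoxc11 fully. Beyond a gap, H3K27me3 covered Hoxc10 over 92.1% and Hoxc9 over 7.66%. H3K4me3 of both replicates also lay at Hoxc10 or within 3 kb of it. H3K36me2 began 28.2 kb beyond the right edge in replicate 1 and 33.6 kb in replicate 2, and at the left edge its nearest interval ended 12.0 kb away in both. The other 43 of the 45 Hox genes lay outside the domains.

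The longest runs covered in both replicates after HoxC were 82.4 kb in a domain that reached into Iqsec3 (a synaptic exchange factor) on chromosome 6, 80.2 kb in Prlr (the prolactin receptor) on chromosome 15, 75.0 kb at chr15:11480801-11610399 without a gene, and 74.4 kb over Chil3 and Chil4 on chromosome 3. The domains of Iqsec3 and Prlr were each 1 unbroken interval in both replicates.

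Few genes lay wholly inside domains. Of 47042 autosomal RefSeq genes, 713 (1.52%) were wholly inside a domain, and of 20665 protein-coding genes 221 (1.07%) were. Domains touched 1463 genes (3.11%) by at least 1 bp. Genes wholly inside were short, with a median of 5.36 kb for protein-coding genes against 17.5 kb for all, as is implied by having to fit. Protein-coding genes that were touched but not inside were long, with a median of 106 kb. Of the domains, 264 (19.3%) touched no gene, 444 (32.4%) lay wholly within a protein-coding gene, and 137 (9.99%) held at least 1 whole protein-coding gene. Genes covered 56.8% of the domain bp, against 46.7% of the bp of shorter two-replicate peaks and 49.4% of the autosomal span.

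Keratin genes, which encode the intermediate filaments of epithelia and hair, were the family with the largest share inside among the families listed, 28 of 55 (50.9%, against 1.52% of all genes). On chromosome 15, which holds the type II keratins, 22 of 26 protein-coding keratin genes were inside, and on chromosome 11, which holds most type I keratins, 6 of 27. In H3K27me3 of any width, 22 of the 26 and 14 of the 27 lay fully covered. The median cover by any width was 100% on both chromosomes, so the type I genes lay largely in shorter peaks. Chromosome 15 was rich in domains, which took up 10.8% of its span against 2.64% of the autosomal span. The type II cluster was covered by 9 domains in a row from chr15:101347801-101946599, between 42.6 and 80.2 kb wide and between 0.801 and 19.4 kb apart, which filled 544 of 599 kb. Replicate 1 covered 94.1% and replicate 2 93.7% of these domains, and 87.7% was covered in both. The domain at chr15:101675001-101755199 held Krt6b, Krt6a, Krt5 and Krt71, whose neighbours of the epidermis and hair Krt1, Krt2 and Krt77 lay together in another domain. Within the whole stretch there were 0 peaks of H3K36me2, H3K9ac, H3K4me3 and ATAC-seq and 1 of H3K27ac. The simple epithelial keratin gene Krt8, 50.1 kb beyond the last domain, had 0% of its length in H3K27me3, and H3K36me2 intervals of both replicates reached it, whereas its partner Krt18 had 84.2% in shorter H3K27me3 peaks.

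**Figure D2:**
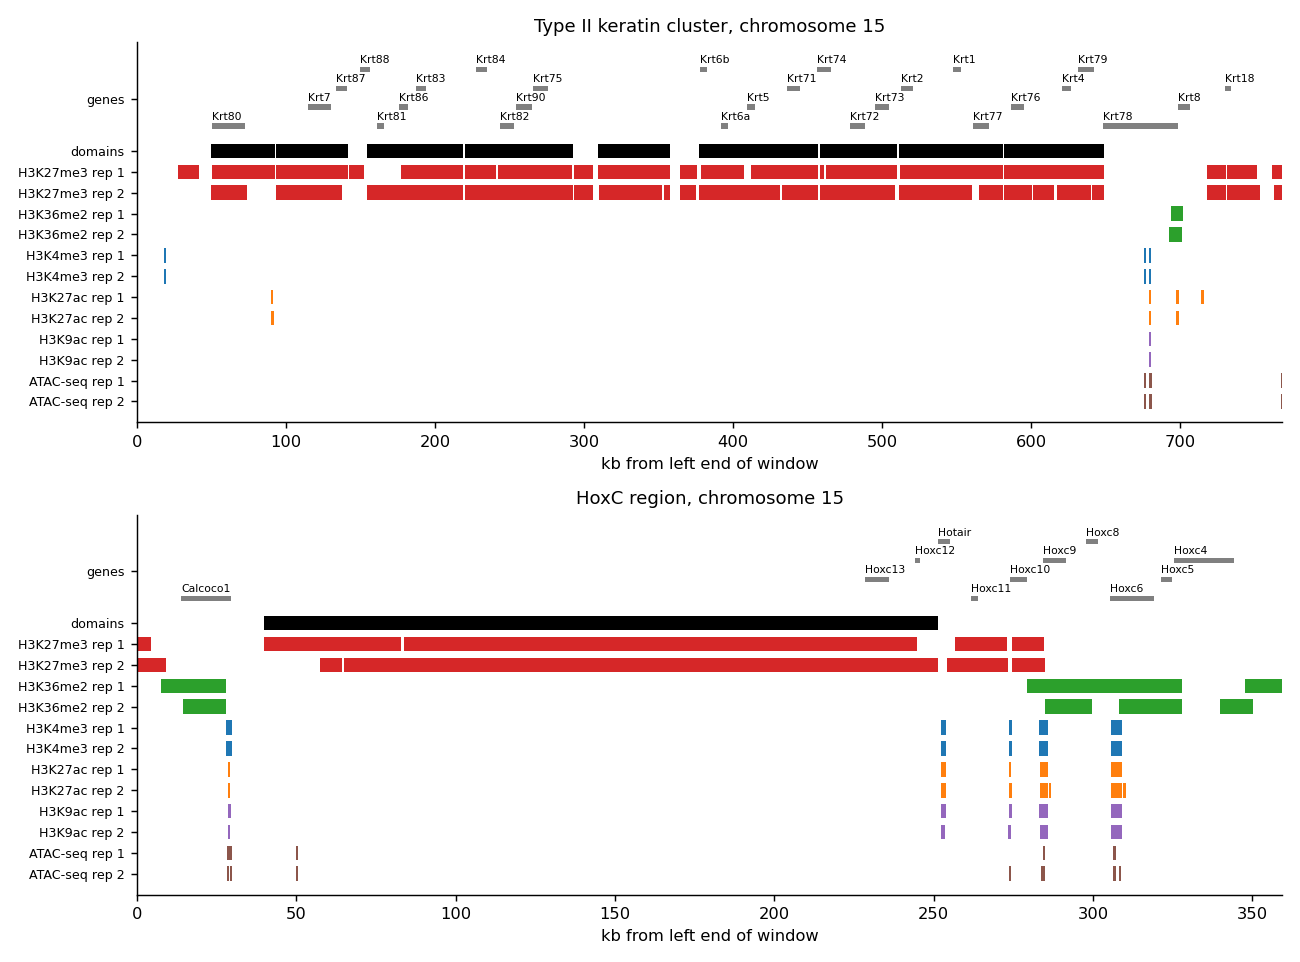
Called intervals (bars) of each replicate in 2 windows of chromosome 15, with distance in kb from the left end of the window on the x axis and 1 row per list; black bars are the long domains and grey bars the named genes. The 9 domains of the keratin cluster follow each other without H3K36me2, which begins near Krt8, and the HoxC domain ends before the active marks of Hotair, with H3K36me2 only outside the domain.

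Olfactory receptor genes, which are mostly silent outside the olfactory epithelium, were the largest family listed and the largest group inside by number. Of 1420, 75 (5.28%, against 1.52% of all genes) lay inside 32 domains. They were spread unevenly: 21 of 104 on chromosome 11, 13 of 91 on chromosome 19 and 11 of 30 on chromosome 4 lay inside, against 1 of 377 on chromosome 2. Domains took up 4.46%, 5.85%, 0.783% and 2.20% of the span of these chromosomes in this order. The domain at chr1:92568401-92610399 (42.0 kb) held Olfr1413, Olfr1412, Olfr1411 and Olfr1410, and was covered over 86.7% in replicate 1 and 95.7% in replicate 2. The domain at chr7:102689601-102724599 held Olfr557, Olfr558, Olfr33 and Olfr559, with 80.0% in replicate 1 and 100% in replicate 2. On chromosome 4, the domain at chr4:118881801-118972599 held Olfr1330, Olfr1329 and Olfr1328 beside Lao1, an L-amino acid oxidase gene.

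Some other gene clusters of differentiated cell types were also held in part, beside 1.52% of all genes. Others had 0 genes inside, such as the major urinary proteins (46 genes), kallikreins (38), and late cornified envelope and small proline-rich genes (38). Of the MS4A family of membrane proteins 6 of 21 lay inside (Ms4a1, the B cell antigen CD20, with Ms4a8a, Ms4a5, Ms4a14, Ms4a7 and Ms4a3). Of the serpins, serine protease inhibitors, 8 of 68 were inside, mostly of the Serpina3 cluster. Of the chemokines 3 of 42 were inside (Ccl12, Ccl8 and Ccl6), in 2 domains, and of the keratin-associated proteins of hair 3 of 56, in 1 domain. The domain with the most whole protein-coding genes, at chr15:74741401-74814399 (73.0 kb), held Slurp2, Lynx1, Ly6d, Ly6g6g and Ly6k, small proteins of the Ly6 fold, and was covered over 95.3% in replicate 1 and 77.0% in replicate 2. A domain at chr6:87345001-87398199 held the stomach genes Gkn1, Gkn2 and Gkn3, with 57.9% in replicate 1 and 99.2% in replicate 2.

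Several large families were near or under the background of all genes. Of the microRNA genes 15 of 1093 (1.37%) were inside, of the vomeronasal type 1 receptors 3 of 372 (0.806%), and of the zinc finger proteins 1 of 441 (0.227%, Zfp385a). The 7 ribosomal protein entries inside, of 364, were all pseudogenes. T cell receptor segments (271 genes), defensins (83) and protocadherins (68) had 0 inside. Of the microRNAs, Mir341, Mir1188 and Mir370 lay together in the domain of Rian, a maternally expressed non-coding gene of the Dlk1-Dio3 imprinted cluster on chromosome 12. That domain covered 89.5% of Rian. Mirg, of the same cluster, had 0% of its length in domains but 44.2% in H3K27me3 of any width. Dio3 had 84.0% in domains. The imprinted genes Grb10 (a growth inhibitor) and Zdbf2 had 62.4% and 93.7% of their length in domains. Ddc, beside Grb10, had 0% in domains and 28.7% in H3K27me3 of any width. These genes were chosen after their values were seen, and no list of imprinted genes was counted.

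**Figure D3:**
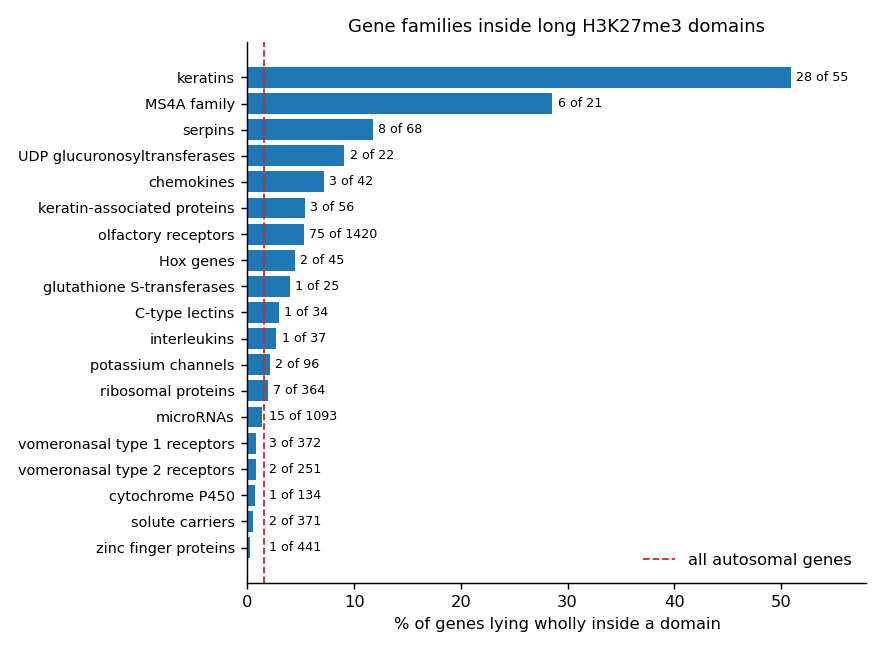
Percent of the genes of each family that lie wholly inside a long domain (x axis), for families of at least 20 genes with at least 1 gene inside, with the counts beside the bars; the dashed line marks all autosomal genes (1.52%). Keratins stand at 50.9%, and microRNAs, vomeronasal receptors and zinc finger proteins lie below the line.

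The lists of lineage and functional genes stand beside the 3.11% of all genes that a domain touched, a share at which lists of this length hold few touched genes or none. Of 19 T lineage genes 0 were touched by a domain, and 19 had H3K4me3 in both replicates. T cell genes outside this list were touched: Il9 lay inside, and Icos had 28.6% and Dpp4 3.32% of its length in domains. They were picked after their values were seen. Of 12 B lineage genes 2 were touched (16.7%): Ms4a1 was inside and Ebf1, a B cell determination factor, had 9.33% of its 390 kb in a domain and 81.2% in H3K27me3 of any width. Of 12 myeloid genes 0 were touched, of 10 housekeeping genes 0, and of 20 genes of the Polycomb repressive complexes 0. Pcgf5, a Polycomb group subunit gene outside this list and picked after its value was seen, had 29.7% of its length in a domain. H3K4me3 in both replicates was also found at 20 of the Polycomb complex genes and 9 of the housekeeping genes. It was found at 4 of the B lineage genes and 5 of the myeloid genes. Of 50 developmental regulators of the kind that Polycomb marks in stem cells, 0 were inside and En2 (2%) was touched, over 30.6% of its length. Of 45 neuronal adhesion and synaptic genes 0 were inside and 9 (20%) were touched in part, among them Grm8, Cntnap2, Opcml and Ntm. The genes of this list are long, the shortest being Cdh9 with 129 kb. Domains touched 11.9% of all protein-coding genes of at least 100 kb, so the part of gene length in the 20% was not separated.

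Long genes were the other main setting. Domains touched 275 of the 2313 protein-coding genes of at least 100 kb (11.9%), where a longer gene also has more bp that can be touched. Pard3b, a cell polarity gene of 1004 kb on chromosome 1, had 614 kb (61.2%) in 11 domains. Rims2 (synaptic vesicle release) had 346 kb in 6 domains, Tmem117 332 kb in 8, and Zfpm2 (a cofactor of GATA factors) 298 kb in 6. Each of these 4 genes was covered over 91.3 to 93.3% in H3K27me3 of any width and held 0 kb of H3K36me2. Among the genes of at least 100 kb, 65 had at least 50% of their length in domains, led by Dab2 (99.4%), Cps1 (98.7%, the first enzyme of the urea cycle), C1qtnf7 (98.5%), Marchf11 (98.1%) and Prlr (94.1%). Of these 65 genes 55 had 0 bp in H3K36me2 peaks. Any H3K36me2 was held by 28.4% of all touched genes of this length and by 63.1% of the untouched ones. Genes filled by domains over at least 50% also have fewer bp left for that mark.

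Some long genes carried both marks. The overlap of the marks within each gene was not measured, and the domain at chr8:118388801-118435999, which touches Cdh13, touched 3 H3K36me2 peaks. Of the 275 touched genes of at least 100 kb, 78 (28.4%) held any H3K36me2, against 1285 of the 2038 untouched genes of that length (63.1%). In 22 touched genes H3K36me2 covered at least 50 kb. Ctnnd2 (delta catenin, 857 kb) had 277 kb in 5 domains and 256 kb in H3K36me2, of which 220 kb were found in replicate 1 and 203 kb in replicate 2. Cdh13 (T-cadherin, 1185 kb) had 225 kb in domains and 344 kb in H3K36me2 (265 and 288 kb per replicate). Pdzd2 had 221 kb in domains, the same amount as in H3K27me3 of any width (58.1%), and 100 kb in H3K36me2. Ptprk (a receptor tyrosine phosphatase, 523 kb) had 284 kb in domains and 90.8 kb in H3K36me2, of which 62.8 and 73.0 kb per replicate.

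Among the genes that domains touched, the longest, Cntnap2 (2241 kb), had 8.84% of its length in 4 domains and 35.98% in H3K27me3 of any width. Prkg1 had 6.68% in domains and 62.3% in any, and Opcml 17.5% and 74.3%. Pard3b, also among the longest touched genes, had 61.2% in domains, as given above. Very long genes were also left untouched, such as Ptprd (2271 kb), Lsamp (2197 kb) and Lrp1b (2058 kb), with 0 domains each.

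Start sites inside domains had low CG content and rarely carried an active mark. Of 31396 promoter windows in the RefSeq table, which holds 25748 of the genes and no chromosome 18, 662 (2.11%) had their start site in a domain, and 517 of these in intervals of both replicates. The median CG count in 250 bases was 3 for start sites inside, 3 in shorter two-replicate peaks and 6 outside domains. A count of 10 or more was found in 16.3% of windows inside and in 38.3% of all windows. TATAAA on the gene's strand was found in 12.4% inside, against 11.2% in shorter peaks and 7.59% of all windows (19.8%, 17.4% and 12.4% on either strand). Of the 20 keratin windows inside 8 held TATAAA, and of all 37 keratin windows 15 did. The median CG count was 4 for keratin windows and 1 for the 64 olfactory receptor windows inside.

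H3K4me3 covered 5 of the 662 start sites inside domains (0.755%) in each replicate, against 33.0% (replicate 1) and 32.9% (replicate 2) of those outside and 3.05% and 3.01% of those in shorter two-replicate peaks. The 5 were Mapre3, Mphosph6, 6430548M08Rik, Gm42056 and Pcgf5, which encodes a Polycomb group subunit. The start sites of Pcgf5 and Mphosph6 lay 0.651 and 0.374 kb from an edge, and that of Gm42056 9.84 kb. Only 5 start sites with H3K4me3 carry this comparison, and no expression value was used.

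Other marks were nearly absent inside. In 1282 of 1371 domains (93.5%) there was no peak of H3K36me2, H3K27ac, H3K9ac, H3K4me3 or ATAC-seq, against 98.2% of the shorter two-replicate peaks, which hold fewer bp each. H3K36me2 peaks covered 0.0535% of the domain bp in replicate 1 and 0.0912% in replicate 2, against 0.101% and 0.0912% of the bp of shorter two-replicate peaks and 12.7% and 12.6% of the autosomal span. They touched 17 domains in replicate 1, 18 in replicate 2 and 30 (2.19%) in either list, but the H3K36me2 bp found in both replicates touched only 0.292% of the domains. H3K4me3 touched 29 domains in replicate 1 and 27 in replicate 2, H3K27ac 13 and 12, H3K9ac 13 and 14, and ATAC-seq 29 in each. ATAC-seq touched 39 domains (2.84%) in either list, and 1.39% when only bp in both replicates were counted. Per bp, H3K4me3 covered 0.0323% of the domains and 0.0700% of shorter two-replicate peaks, with 1.15% of the span.

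An active mark or ATAC-seq peak lay in 61 domains (4.45%), against 1.24% of shorter two-replicate peaks, which offer fewer bp per peak. In 37 of these domains a peak midpoint lay more than 5 kb from the nearest edge. All of H3K27ac, H3K9ac, H3K4me3 and ATAC-seq were present in 8 domains. One of them, chr15:103308401-103407799 (99.4 kb), held Zfp385a and Itga5 (integrin alpha 5) and had its innermost peak 15.7 kb from an edge. In another, which reached into Cdon (a coreceptor of Hedgehog) at chr9:35402001-35432599, the innermost peak was 11.1 kb inside. In the domain of Mphosph6 it was only 0.515 kb inside.

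H3K36me2 rose only slowly outside the domains, and H3K27me3 came back soon after the edge. At 9.5 kb outside, H3K27me3 covered 58.8% of the bp in replicate 1 and 63.8% in replicate 2, and at 99.5 kb still 47.1% and 52.0%, against 10.7% and 12.3% of the span. The low values of 5.40% and 5.71% in the first kb follow from the definition of an edge, where the merged peak ends. The next H3K27me3 peak began a median of 1.60 kb beyond an edge, and 70.4% of the edges had one within 5 kb (shorter two-replicate peaks, 57.9%). H3K36me2 covered 0.416% and 0.423% in the first kb, 3.05% and 3.04% at 19.5 kb, 5.42% and 6.03% at 49.5 kb and 9.69% and 10.4% at 99.5 kb. At 99.5 kb it was still below its share of the span, 12.7% and 12.6%.

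**Figure D4:**
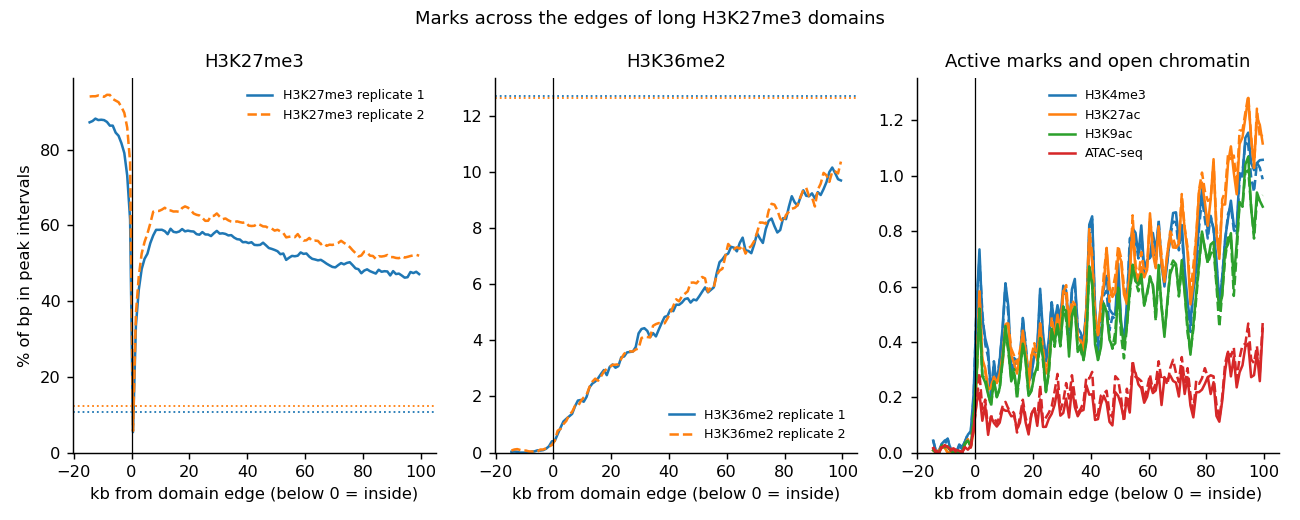
Percent of bp in called intervals by distance from the domain edge in kb (1-kb bins, negative values inside), over 2742 edges; solid lines are replicate 1, dashed lines replicate 2, and dotted horizontal lines in the first and second panels the share of the autosomal span. H3K27me3 returns to 58.8 and 63.8% within 10 kb of the edge, H3K36me2 climbs from 0.416 and 0.423% to 9.69 and 10.4%, and the active marks and ATAC-seq reach at most 1.29%.

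Few domains were bordered by H3K36me2. In flanks of 50 kb it covered 3.40% of the bp in replicate 1 and 3.45% in replicate 2 (4.38% merged), against 2.78% and 2.75% (3.62% merged) for shorter two-replicate peaks. An H3K36me2 peak lay within 50 kb on both sides of 40 domains, on 1 side of 327 and on neither side of 1004. The median distance from an edge to the nearest H3K36me2 peak was 224 kb, against 305 kb for shorter two-replicate peaks. H3K4me3 lay within 5 kb of 76 of the 2742 edges (2.77%), against 1.62% for shorter peaks. An annotated start site lay within 5 kb of 10.9% of the edges of long domains and 9.82% of those of shorter peaks.

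Domains came in runs. Of the 1371 domains 732 lay in 262 runs of domains no more than 50 kb apart, and 58 runs held at least 4. The longest by number was at chr15:94615601-95256199, with 10 domains over Tmem117 and part of Nell2 that filled 73.8% of 641 kb. It was followed by the keratin run with 9 and by runs of 8 in Pard3b on chromosome 1 (485 of 558 kb) and over Lifr and Egflam on chromosome 15 (501 of 551 kb). These runs were described after their values were seen.

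The domains were spread unevenly over the chromosomes. There were 5.72 per 10 Mb over all autosomes, 20.5 on chromosome 15, which held 207 domains over 10.8% of its span, and 12.7 on chromosome 19. Chromosome 16 had 2 domains, chromosome 14 had 5 and chromosome 7 had 16. Both replicates showed this: of the single intervals of at least 30 kb, 90 of 269 in replicate 1 and 130 of 535 in replicate 2 were on chromosome 15, and 0 in either on chromosome 16. H3K27me3 of any width covered 22.1% of chromosome 15 in replicate 1 and 24.1% in replicate 2, and 23.0% and 26.3% of chromosome 19, which had fewer long domains. Other marks were also higher on chromosome 15, by a smaller amount. H3K36me2 covered 19.7% of it and 16.1% of the span, H3K27ac 1.64% and 1.35%, and H3K9ac 1.18% and 1.02%. For H3K4me3 the values were 1.24% and 1.15%, and for ATAC-seq 0.452% and 0.448%. The part of local read depth in these differences was not tested. Without chromosome 15 the share of genes inside was 1.30%, and that of domains touching an H3K36me2 peak was 1.46% instead of 2.19%.

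**Figure D5:**
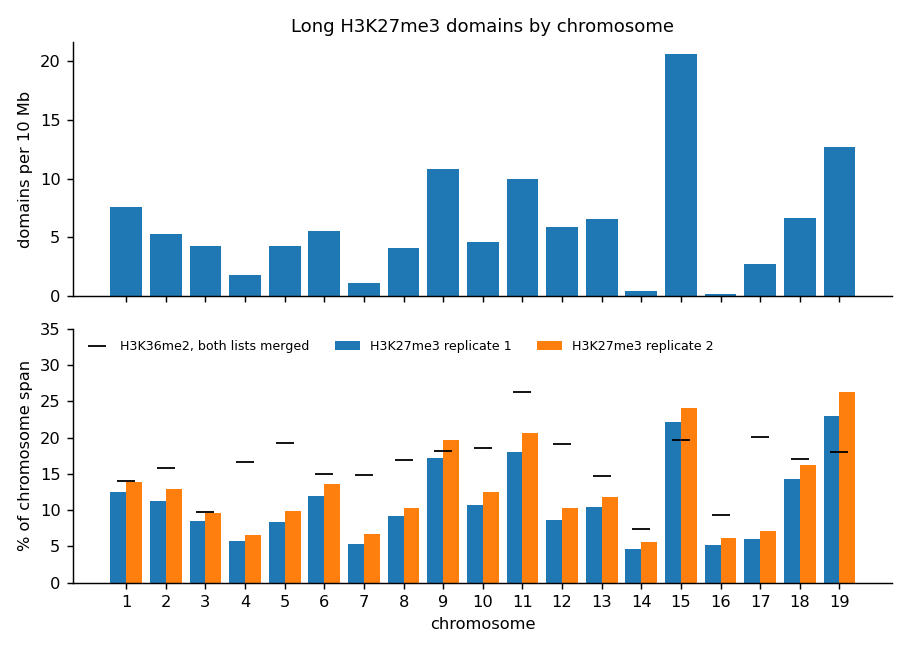
Domains per 10 Mb of chromosome span (upper panel) and percent of the span in H3K27me3 intervals of each replicate, with black dashes for H3K36me2 (lower panel), by autosome on the x axis. Chromosome 15 has 20.5 domains per 10 Mb and chromosome 16 has 0.210, and both replicates show the same order of these chromosomes in H3K27me3 cover.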

How the data were processed

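For H3K27me3, H3K36me2, H3K27ac, H3K9ac, H3K4me3 and ATAC-seq, the deposited file of each replicate lists the intervals the authors called, with chromosome, start and end in base pairs and no score, signal, count or p-value. Per the methods and the submitters' processing notes, the authors aligned with STAR 2.5, treated duplicates with Picard, and called peaks with MACS2, except the broad H3K27me3 and H3K36me2 intervals, for which they used Epic, with input as the ChIP control. Epic works in bins, here 200 bp wide, and bridges small gaps, and the smallest gap between intervals of a replicate inside a domain was 801 bp. Whether an interval is called depends on read depth, which is unknown.

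The members and the gene lists were chosen with earlier results of these data known. The rule for named genes took the longest domains, those with most whole protein-coding genes or most breaks, the widest breaks, the longest runs in both replicates, the longest genes, and the listed families and gene lists. Positions refer to GRCm38, and genes and promoter letters are those of RefSeq GRCm38.p6, which gives no strand for genes and no chromosome 18 promoters. A gene is inside if all its bp lie in 1 domain. Peaks of other marks are the merged lists of both replicates unless a replicate is named. No test was run, since each mark has 2 lists without counts: counts stand beside the same value over all genes or over shorter peaks. Alternatives were other merging distances, minimum widths, replicate support, gene sets, flanks and each replicate alone, and, chosen after seeing the data, leaving out chromosome 15 and requiring 30 kb in 1 run of both replicates. Interval counts were tested on simulated data, and 8 counts were compared with bedtools 2.31.1, of which 0 differed. Python 3.11.15, numpy 2.4.6, pandas 2.3.3 and matplotlib 3.10.9 were used.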

Additional observations from a re-analysis of the deposited data

Results flagged for a closer look

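Chromosome X was left out of the domains, and the methods describe reads on the sex chromosomes as discarded, yet the H3K27me3 lists hold intervals there. They merged into 530 peaks over 3.03 Mb, the widest of 45.2 kb, and 3 of them would have passed as long domains with both replicates.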

How the results depend on the processing

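The number of domains was 3220 with a minimum width of 20 kb, 363 with 50 kb, 111 with 30 kb in 1 run covered in both replicates, and 269 to 535 with either replicate left out. With intervals up to 1000 bp apart merged it was 2033, against 1371 in the main setting. The percent of genes inside was 2.53 at 20 kb, 0.623 at 50 kb, 2.58 with intervals up to 1000 bp apart merged, 0.232 for runs in both replicates, 1.07 for protein-coding genes, 3.11 for genes touched, 1.30 without chromosome 15 and 0.278 to 0.548 with a replicate left out. The percent of bp in both replicates was 72.8 with 1000-bp merging, 83.8 at 50 kb and 91.0 for runs in both. The percent of domains touching no gene was 20.7 with 1000-bp merging, 26.0 at 20 kb, 11.0 at 50 kb, 11.7 for runs in both, 37.4 for protein-coding genes, and 17.8 to 19.3 with a replicate left out. The percent touching H3K36me2 was 1.87 with 1000-bp merging, 2.75 at 50 kb, 4.50 for runs in both, 0.292 with H3K36me2 bp of both replicates, 1.46 without chromosome 15, and 1.86 to 2.24 with a replicate left out. The percent touching ATAC-seq was 4.41 at 50 kb, 6.31 for runs in both, 1.39 with ATAC-seq bp of both replicates, and 2.62 to 4.46 with a replicate left out. The percent of flank bp in H3K36me2 was 4.76 with 1000-bp merging, 4.77 at 50 kb, 8.30 for runs in both, 2.46 with 20-kb flanks, 7.30 with 100-kb flanks, 2.46 with H3K36me2 bp of both replicates, and 4.43 to 4.93 with a replicate left out. Merging intervals 1 bp apart and asking each replicate to cover 50% of a domain moved each of these values by less than 1 SD between the single-replicate values (or, for the number of domains, by less than 1.5 times).

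Fewer domains and genes under a wider minimum follow from the rule itself. The cause of the other differences was not tested. The lists give no depth, so a stretch not covered in a replicate and a stretch not called there for want of reads cannot be told apart. With 2 replicates a spread has 1 degree of freedom.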
